A study of Sus scrofa with 6 samples.

Results

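Transcripts of 10 imprinted genes were followed in porcine 2-cell embryos that carry no paternal genome. The members were listed by symbol: IGF2, PEG3, PEG10, SGCE, MEST, PLAGL1, NNAT and DLK1, which are expressed from the paternal allele in human or mouse, and IGF2R and GRB10, which are expressed from the maternal allele in most mouse tissues. Of these 10, 8 were found by name among the 17678 genes of the deposited table. PEG3 was found through its Ensembl identifier, ENSSSCG00000003326, which has no name there, and IGF2 was found by neither route and was not analysed here. Oocytes at metaphase II from crossbred pigs were injected with negative control siRNA (NC) or with 3 siRNAs against SIN3A (KD) and then activated parthenogenetically. Embryos of both groups therefore hold maternal chromosomes alone, and no fertilized embryos were compared here. Messenger RNA was sequenced at 32 h after activation, from 20 embryos in each of 3 NC and 3 KD replicates.

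Imprinted genes are expressed from a single parental allele, which is fixed by DNA methylation laid down in the egg or in the sperm and kept through the reprogramming that follows fertilization. In a parthenogenetic embryo both chromosome sets bear the maternal marks, and such embryos do not develop to term in mammals. At the 2-cell stage the pig genome is not yet widely transcribed, so most transcripts at this time were stored in the oocyte. SIN3A is the scaffold of a histone deacetylase complex, and ARID4A and ARID4B, which bind that complex, are known for a part in imprinting in mice.

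The starts of SGCE and PEG10 lie 217 bases apart on chromosome 9 of Sscrofa11.1, and the genes run in opposite directions. PEG10 occupies 74474121 to 74486983 on the plus strand and SGCE occupies 74402714 to 74473904 on the minus strand, in the RefSeq annotation. The sequence between them is shown because both transcripts begin at its edges. It lies at chr9:74473905-74474120, holds no annotated exon, and is printed on the plus strand with each CpG pair, the site of DNA methylation, in capitals. Below it stands the stretch before the start of NNAT, the member with the lowest values, at chr17:40625740-40625989 on the plus strand with CpG pairs in capitals. It lies inside the BLCAP gene, outside the exons of that gene. The last is the stretch before IGF2R, the detected maternal member, at chr1:7472481-7472730 on the minus strand, where capitals mark the letters CACGTG instead. All were read from the RefSeq copy of Sscrofa11.1.
Between SGCE and PEG10: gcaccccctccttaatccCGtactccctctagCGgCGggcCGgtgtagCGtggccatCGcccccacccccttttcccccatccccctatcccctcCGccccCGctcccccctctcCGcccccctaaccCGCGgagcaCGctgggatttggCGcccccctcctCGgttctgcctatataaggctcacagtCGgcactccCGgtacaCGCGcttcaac
Before NNAT: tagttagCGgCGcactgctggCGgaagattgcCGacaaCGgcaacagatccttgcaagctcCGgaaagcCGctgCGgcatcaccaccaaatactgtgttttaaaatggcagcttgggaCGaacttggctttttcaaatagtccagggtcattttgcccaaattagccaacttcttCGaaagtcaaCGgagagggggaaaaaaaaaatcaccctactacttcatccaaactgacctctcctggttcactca
Before IGF2R: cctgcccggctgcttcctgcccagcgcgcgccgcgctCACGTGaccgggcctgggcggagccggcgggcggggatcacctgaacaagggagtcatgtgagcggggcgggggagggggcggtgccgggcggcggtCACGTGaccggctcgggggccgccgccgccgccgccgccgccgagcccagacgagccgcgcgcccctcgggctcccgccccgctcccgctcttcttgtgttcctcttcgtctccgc

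The 216 bases between SGCE and PEG10 held 18 CpG pairs. The 250 bases before IGF2R held 39 and those before NNAT held 11, while the median over 19527 protein-coding genes was 12 CpG pairs in the 250 bases before the annotated start. GRB10, with 45, and DLK1, with 44, had more CpG pairs there than any other member. In the same window SGCE had 21, PEG10 18, PEG3 15, MEST 2 and PLAGL1 1. A relation of these counts to the transcript level was not tested. The letters CACGTG are an E-box, the kind of site bound by MAX with its MXD partners, which recruit SIN3. They occurred at 213 and 116 bases before the start of IGF2R and before no other member, and 6.40% of all protein-coding genes held them in the same window, on either strand. The letters TGCCGC, the core of the motif bound by the imprint-protecting factor ZFP57, occurred on either strand before NNAT alone among the members and before 14.3% of all genes. These windows follow 1 annotated start per gene, and several members, among them PLAGL1 and MEST, have further starts within the gene.

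Spearman correlations between the 6 libraries were 0.969 to 0.976. Their values, read estimates normalized between libraries, summed to between 11084950 and 11500709. Because the values had been scaled between libraries, these sums cannot show how alike the libraries were. Estimated depth differed more, from 7797513 to 15754638 reads a library. Steps among the low values put 1 read at between 0.72 and 1.46 units. SIN3A, the targeted gene, fell from 34576 ± 2534 in NC to 2841 ± 1591 in KD embryos (SD, n = 3 each), with adjusted p = 8.45e-06 by limma with Benjamini-Hochberg adjustment. Of 13 oocyte and cleavage embryo markers found, 12 reached a mean of 10, and their summed level was 94117 to 103922 in NC and 90710 to 113276 in KD libraries. Of 15 cumulus and granulosa cell markers found, 7 reached that mean, their summed level was 995 to 1153 in NC and 936 to 1091 in KD libraries, and most of each sum was VCAN. Among the granulosa genes, AMH was between 0 and 1.46 in every library, STAR was 5.29 to 17.8 in NC and 8.75 to 23.4 in KD, and CYP19A1 was 0 to 3.55 in NC and 3.26 to 10.7 in KD libraries. CYP11A1 and FOXL2 had 14.2 and 13.1 in KD replicate 3 and at most 5.22 and 2.90 in the other libraries. PTX3, of the same list, went the other way, with 0.762 to 2.21 in NC and 0 in each KD library. Of the 7 tested, 2 had a log2 fold change above 0 and 5 below, with a median of -0.20. The part of cumulus and granulosa cells in the results was not tested. By limma 0 genes of either list were called. The oocyte gene KPNA7 had 38666 ± 2212 in NC and 40964 ± 6694 in KD embryos, and VCAN, a matrix proteoglycan of cumulus cells, had 816 ± 94.0 and 782 ± 64.4 (SD, n = 3 each). Of the other markers, the log2 fold change was 0.13 for BMP15, -0.10 for H1FOO, -0.31 for VIM, 0.76 for NR5A2 and -0.66 for INHBA, each with adjusted p = 0.997 by limma, and the groups were separate in NR5A2 alone among the markers tested, where 9.79% of all genes tested were separate. Leaving out 1 library moved these values to between 0.068 and 0.17 for BMP15, -0.21 and -0.0058 for H1FOO, -0.50 and -0.053 for VIM, 0.33 and 1.002 for NR5A2, and -0.93 and -0.48 for INHBA. The values nearest 0 were without KD replicate 2 for BMP15, NC replicate 2 for H1FOO and VIM, NC replicate 1 for NR5A2 and KD replicate 1 for INHBA. In pooled embryos, with values scaled between libraries, neither the transcripts per cell nor the number of intact cells was measured.

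Transcripts of 6 of the 9 members found were plainly present, and 5 of these are expressed from the paternal allele in human or mouse. Whether these genes are imprinted in pig embryos of this stage was not measured here. PEG10, a retrotransposon-derived gene of the placenta, stood at 2225, 2129 and 2136 units in the NC libraries, in the order of their replicate numbers, and at 2140, 2424 and 1918 in the KD libraries. MEST, which encodes a hydrolase-like protein of mesoderm, had 1554, 1743 and 1568 in NC and 1555, 1807 and 1572 in KD replicates. In both genes the KD values lay around the NC values, and the groups overlapped. PLAGL1, a zinc finger transcription factor at the centre of a network of imprinted growth genes, had 1281, 1035 and 1180 in NC and 1141, 1293 and 1346 in KD replicates, and the groups overlapped. SGCE, the epsilon subunit of the sarcoglycan complex at the cell membrane, had 225, 180 and 223 in NC and 169, 182 and 135 in KD replicates. KD replicates 1 and 3 of SGCE lay below all NC replicates, and KD replicate 2 lay just above NC replicate 2. PEG3, a large zinc finger protein, had 64.6, 53.1 and 71.5 in NC and 102, 58.7 and 55.2 in KD replicates, where KD replicate 1 stood above the other libraries.

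**Figure D1:**
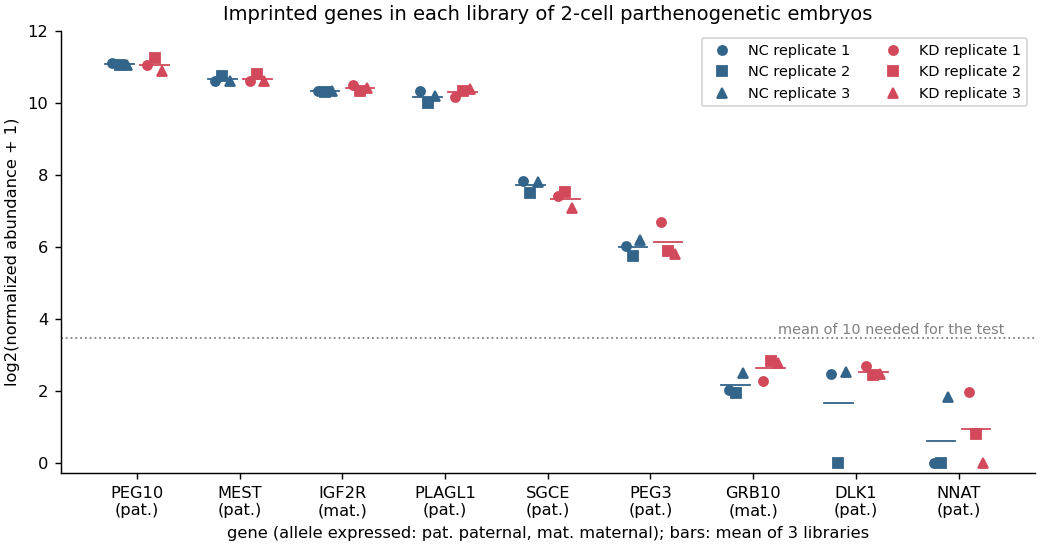
Normalized abundance of the 9 members found, on the log2(value + 1) scale, in each of 3 NC (blue) and 3 KD (red) libraries, with the mean of each group as a bar and the allele of expression under each name. PEG10, MEST, IGF2R, PLAGL1, SGCE and PEG3 lie above the mean of 10 that the test required, GRB10, DLK1 and NNAT lie below it, and the groups overlap in every gene.

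The remaining paternally expressed members were near the limit of detection. DLK1, a membrane protein of the Notch ligand family that restrains the differentiation of fat cells, had 4.57, 0 and 4.75 in NC and 5.39, 4.46 and 4.55 in KD replicates. NNAT, a small membrane protein of the developing brain, was listed at 0, 0 and 2.54 in NC and at 2.93, 0.725 and 0 in KD replicates. At 0.72 to 1.46 units per read, these values correspond to only a few reads, and a difference between NC and KD was not detectable at this depth. The exact two-sided permutation test gave p = 0.6 for DLK1 and p = 0.7 for NNAT, where 3 against 3 replicates cannot go below 0.1.

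The maternally expressed members were split in the same way. IGF2R, the receptor that carries IGF2 to the lysosome for degradation, had 1286, 1280 and 1295 in NC and 1453, 1283 and 1369 in KD replicates. GRB10, an adaptor that dampens signalling from the insulin and IGF1 receptors, had 3.02, 2.85 and 4.59 in NC and 3.85, 6.03 and 5.88 in KD replicates. The IGF2R values of NC lay close together, and KD replicate 2 fell among them while KD replicates 1 and 3 were higher. GRB10 values were too low for the fit, and the exact permutation test gave p = 0.2. The antisense transcript of IGF2R, AIRN, was not found by name, and the libraries are not described as stranded, so reads of an antisense RNA there could not be told apart from IGF2R. The same holds for MEST and COPG2, which run in opposite directions and overlap at their ends. NNAT lies inside BLCAP, which runs in the opposite direction, and whether their exons overlap was not examined.

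Levels of different genes were compared per kilobase, as the deposited value over the median length of the RefSeq transcripts of the gene. On that scale MEST was highest, at a mean of 650 units per kb over the 6 libraries, ahead of PEG10 at 330, IGF2R at 176, PLAGL1 at 157 and SGCE at 107. PEG3 followed far below, at 5.52 to 10.5 units per kb in single libraries. DLK1, NNAT and GRB10 were all at about 0.97 units per kb (0.962, 0.964 and 0.974). The libraries of IGF2R, from 169 to 192 units per kb, overlapped those of PLAGL1, from 134 to 174, so the order of these genes was not settled. The libraries of the other neighbours in the order down to PEG3 did not overlap. The places of MEST, PLAGL1, DLK1, NNAT and GRB10 rest on the transcript used. Over the longest RefSeq transcript MEST would be at 118 and PLAGL1 at 116 units per kb, and over the shortest at 1330 and 542. Between the longest and the shortest, DLK1 would run from 0.912 to 4.05, NNAT from 0.452 to 2.13 and GRB10 from 0.545 to 1.72 units per kb. Of 13244 genes with a length, 92.8% had a lower mean per kb than MEST, 85.9% a lower one than PEG10, 77.6% a lower one than IGF2R and 34.2% a lower one than PEG3. The share of lower genes was 13.4% for DLK1 and NNAT and 13.5% for GRB10.

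None of the 6 members tested passed the test between NC and KD embryos once it was adjusted over all genes. Of all 17678 genes, 11986 had a mean of at least 10 and were tested by limma on log2(value + 1), and 19 of them, 0.159%, had an adjusted p below 0.05. Among the 6 members tested, 5 paternally and 1 maternally expressed, 0 were called, and 1, SGCE, had an unadjusted p below 0.05, against 4.61% of all genes tested. NC and KD libraries were separate in 0 of the 6 members, against 9.79% of all genes tested. The median log2 fold change, KD minus NC, was 0.053 over the 6 members and 0.0026 over all genes tested. The adjusted p was 0.997 for each of the 6 members by limma.

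The intervals give the change that these replicates leave room for. PEG10 had a log2 fold change of -0.0084 (95% confidence interval -0.22 to 0.20), which corresponds to 0.862 to 1.15 times the NC level. MEST had 0.019 (interval -0.19 to 0.23), or 0.878 to 1.17 times NC. IGF2R had 0.087 (interval -0.11 to 0.29), or 0.925 to 1.22 times NC. These genes had the narrowest intervals among the 6 members tested. For PLAGL1 the log2 fold change was 0.11 (interval -0.11 to 0.34), or 0.924 to 1.27 times NC, and it ranged from 0.031 without NC replicate 2 to 0.19 without NC replicate 1. The value of IGF2R was 0.042 without KD replicate 1 and 0.13 without KD replicate 2. PEG3 was the least precise of the 6 members tested, with 0.14 (interval -0.42 to 0.70), or 0.747 to 1.62 times NC, and without KD replicate 1 its value was -0.14. Signs as small as those of PEG10 and MEST also turned when a single library was left out.

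**Figure D2:**
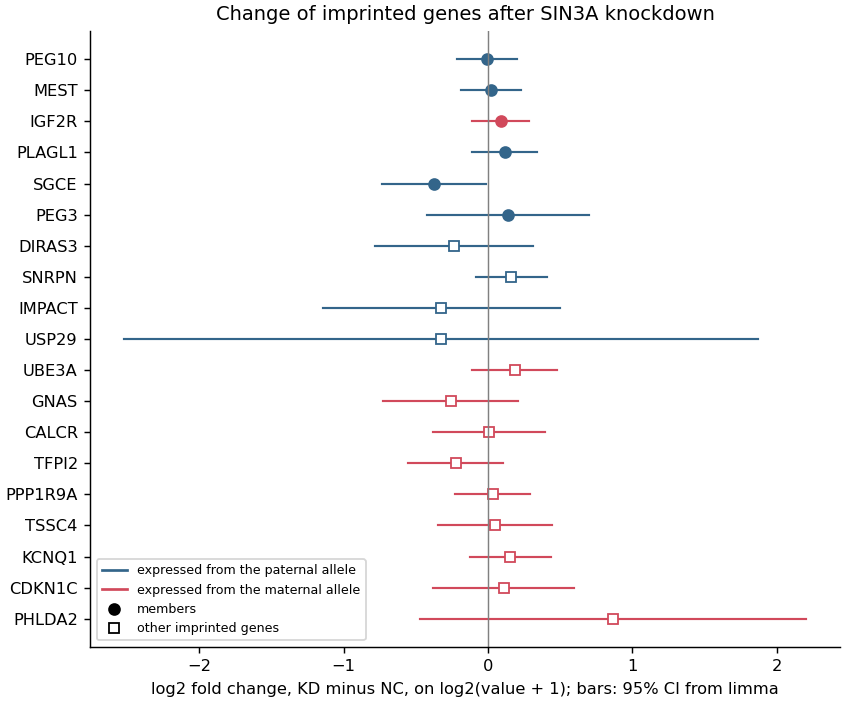
Log2 fold change, KD minus NC, on the log2(value + 1) scale for the 6 members tested (filled circles) and 13 other imprinted genes (open squares), with 95% confidence intervals from limma as bars, blue for paternal and red for maternal expression. The interval of SGCE, from -0.73 to -0.013, ends just below 0, and each of the other intervals includes 0.

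SGCE had the largest log2 fold change in size among the 6 members tested. Its mean was 209 ± 25.5 in NC and 162 ± 24.4 in KD embryos (SD, n = 3 each), so that the KD mean was 77.4% of the NC mean. The log2 fold change was -0.37 (standard error 0.17, 95% confidence interval -0.73 to -0.013), with an unadjusted p of 0.043 and an adjusted p of 0.997 from limma. The exact permutation test gave p = 0.2, two-sided. The difference did not hold over all genes tested, and it ranged from -0.48 to -0.25 on leaving out single libraries. By limma its unadjusted p was not below 0.05 without NC replicate 1 or 3, KD replicate 1 or 3, or the variance trend. PEG10, whose transcript starts at the other edge of the 216 bases shown above, had 2163 ± 53.3 in NC and 2160 ± 254 in KD embryos (SD, n = 3 each). Its KD replicates spread more widely than its NC replicates.

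The ratio of PEG10 to SGCE, each per kb, was formed after these values were seen and was not tested. The NC libraries gave 2.61, 3.13 and 2.54, by replicate number, and the KD libraries gave 3.36, 3.51 and 3.76. All 3 KD ratios were above all 3 NC ratios, which rests on the lower SGCE values of KD replicates 1 and 3 and the higher PEG10 value of KD replicate 2. Of single genes tested, 9.79% were separate, and how often ratios of other gene pairs separate was not counted.

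**Figure D3:**
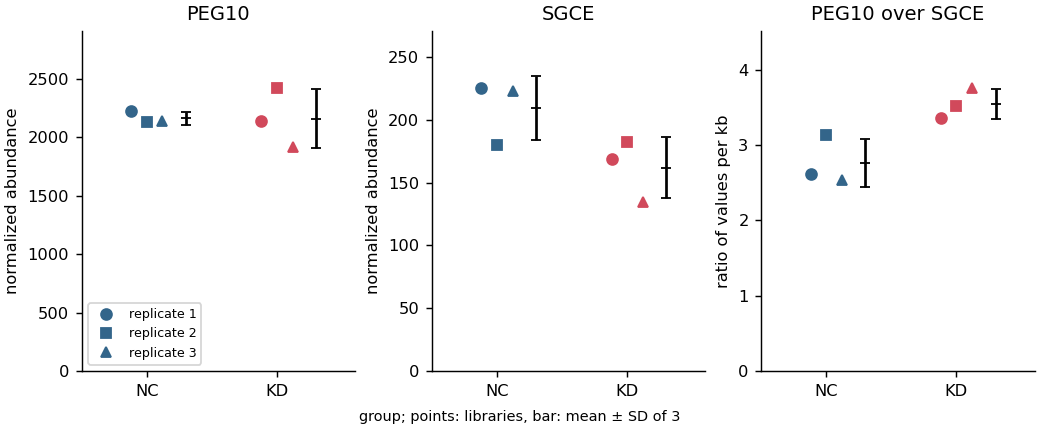
Normalized abundance of PEG10 and of SGCE, and the ratio of their values per kb, in each NC (blue) and KD (red) library, with mean ± SD of 3 libraries in black and axes that start at 0. PEG10 overlaps between the groups, SGCE overlaps through NC replicate 2 and KD replicate 2, and the ratios, 2.54 to 3.13 in NC and 3.36 to 3.76 in KD, are separate.

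**Figure D4:**
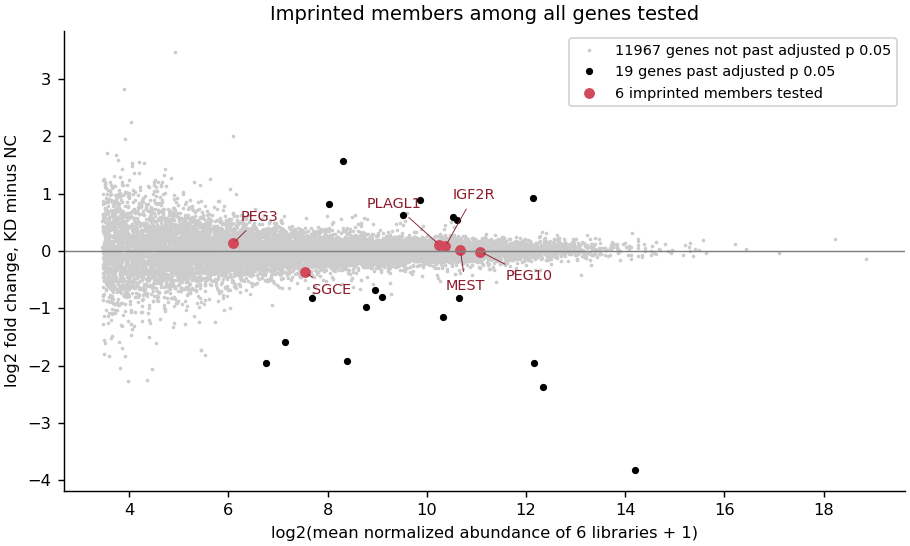
Log2 fold change, KD minus NC, against the log2 mean abundance for all 11986 genes tested by limma, with the 19 genes past an adjusted p of 0.05 in black and the 6 members tested in red. The members lie within the grey band of genes that did not pass, and the lowest black point, at -3.81, is SIN3A.

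Other imprinted genes, taken from a list of 31 that are imprinted in human or mouse, were likewise in part present and in part near absent. Of the 31, 23 were found by name and 13 had a mean of at least 10. The growth-restraining maternally expressed genes H19 and MEG3, both noncoding, were not found by name, and CDKN1C, an inhibitor of cyclin-dependent kinases, had a mean of 90.0. By limma 0 of the 13 were called and 0 had an unadjusted p below 0.05, where 4.61% of all genes tested did. Of the 13, 8 had a fold change above 0 and 5 below, and the median log2 fold change was 0.033. Of the 4 paternally expressed ones, 1 was above 0 and 3 below, with a median of -0.28. Of the 9 maternally expressed ones, 7 were above and 2 below, with a median of 0.049. A difference between these classes was not tested. In 2 of the 13, UBE3A and KCNQ1, all KD values lay above all NC values, where 9.79% of all genes tested were separate in either direction. UBE3A, a ubiquitin ligase, had 250, 245 and 230 in NC and 252, 282 and 291 in KD replicates. KCNQ1, a potassium channel, had 269, 314 and 327 in NC and 332, 350 and 328 in KD replicates.

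Among the other paternally expressed genes, SNRPN and DIRAS3 had the highest means. SNRPN, a component of small nuclear ribonucleoproteins, had 507 ± 45.2 in NC and 566 ± 29.2 in KD embryos (SD, n = 3 each), and limma put its log2 fold change at 0.16 (adjusted p = 0.997). Its value is uncertain, since it resembles SNRPB and shares its transcript with SNURF. DIRAS3, a small GTPase that restrains growth, had 55.9 ± 7.33 in NC and 47.5 ± 8.32 in KD embryos (SD, n = 3 each), which limma put at -0.24 on the log2 scale (adjusted p = 0.997). Among the maternally expressed ones PPP1R9A, an actin-binding protein whose gene follows PEG10 on chromosome 9, had 366 ± 11.5 and 375 ± 25.0, and TFPI2, a protease inhibitor of the placenta, had 359 ± 44.3 and 310 ± 57.5 (SD, n = 3 each). PHLDA2, which restrains placental growth, varied from 2.11 to 15.0 among NC and from 10.2 to 21.6 among KD libraries. The values of all 5 genes overlapped between the groups.

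**Figure D5:**
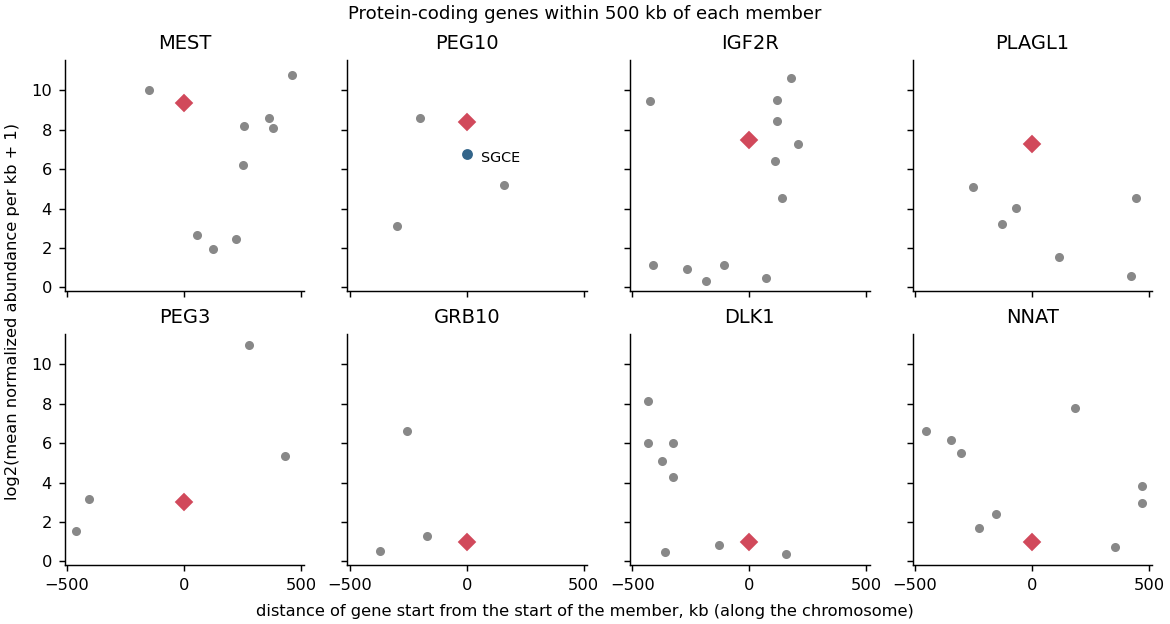
Mean normalized abundance per kb over 6 libraries, on a log2 scale with 1 added, of each member (red diamond, with SGCE in blue beside PEG10) and of the protein-coding genes whose start lies within 500 kb of its own (grey), by distance in kb. PLAGL1 stands above all its neighbours found, MEST, PEG10 and IGF2R have neighbours above and below them, and GRB10, DLK1 and NNAT stand near 1 unit per kb with most neighbours above them.

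Within 500 kb of the members the annotation held 91 protein-coding genes, some of them members themselves, of which 56 were found in the table and 38 were tested. By limma 0 of the 38 were called, and 4, the member SGCE among them, had an unadjusted p below 0.05, where 4.61% of all genes tested did. The lowest adjusted p was 0.437. That was UBE2H, a ubiquitin-conjugating enzyme on the side of MEST, named after its values were seen. It had 10922, 10929 and 8478 in NC and 6909, 6833 and 8904 in KD replicates, which overlap, and a log2 fold change of -0.42. Their median log2 fold change was -0.037. Beside IGF2R, the organic cation transporters SLC22A2 and SLC22A3, which are imprinted in the mouse placenta, had means of 0.925 and 3.09 units. CASD1, which modifies sialic acids and starts within 500 kb of SGCE, had a mean of 1617 units, and COPG2, a coat protein gene that overlaps the end of MEST, had 2937. Of 20 genes fixed as neighbours from human and mouse maps, 14 were found and 7 tested, with 0 called and 0 with an unadjusted p below 0.05 by limma.

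Several factors that keep imprints through early cleavage were abundant in both groups. DNMT1, which copies DNA methylation onto new strands, had 310640, 288202 and 257780 in NC and 342567, 351980 and 299669 in KD replicates. By limma its log2 difference was 0.22 (adjusted p = 0.997), and with quantile normalization it was 0. UHRF1, which brings DNMT1 to newly made DNA, had 13342 ± 1183 in NC and 14446 ± 593 in KD embryos (SD, n = 3 each), or 0.12 on the log2 scale (limma, adjusted p = 0.997). ZNF445, a zinc finger protein that protects imprints, had 5223, 4311 and 5167 in NC and 5788, 5495 and 5594 in KD replicates. All KD values of ZNF445 were above all NC values, and limma put the log2 difference at 0.20 (unadjusted p = 0.038, adjusted p = 0.997). ZFP57, the other zinc finger protein of this kind, stayed between 1.47 and 8.35 in all libraries. Of the 15 factors listed, 10 were found and 8 tested. By limma 0 were called and 1, ZNF445, had an unadjusted p below 0.05, where 4.61% of all genes tested did. The groups were separate in 1 of the 8, ZNF445, against 9.79% of all genes tested.

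IGF signalling genes, on which IGF2R and GRB10 act, were present in part. IGF1R, the receptor through which IGF2 drives growth, had 1885 ± 130 in NC and 2039 ± 90.7 in KD embryos, and IGF2BP3, a protein that binds IGF2 messenger RNA, had 12678 ± 846 and 12112 ± 560 (SD, n = 3 each). IGF1 was listed at 0 in 5 libraries and at 2.15 in KD replicate 2. IRS2, a docking protein of the insulin and IGF1 receptors, had 18.8, 35.1 and 20.5 in NC and 46.7, 40.2 and 41.7 in KD replicates, separate between the groups. Its log2 fold change was 0.82 (95% confidence interval 0.12 to 1.51, unadjusted p = 0.024, adjusted p = 0.997 from limma), so it did not pass over all genes. IGFBP7, a binding protein, had 147 in KD replicate 1 and 66.5 to 78.1 in the other libraries. Of the 20 genes listed, 19 were found and 11 tested, with 5 fold changes above 0 and 6 below. By limma 0 were called and 1, IRS2, had an unadjusted p below 0.05, where 4.61% of all genes tested did. The groups were separate in 1 of the 11, IRS2, against 9.79% of all genes tested.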

How the data were processed

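Poly(A) RNA of 6 libraries was used, 3 NC and 3 KD, grouped by the sample titles. The authors assigned reads to Sscrofa11.1 transcripts with Salmon 0.14.1 and used DESeq2. They deposited 1 table of normalized signal per Ensembl gene, read estimates scaled between libraries and not by gene length. Between 66.4% and 74.7% of low values lay within 0.05 of a whole number of reads, so no count test was run. The estimated depth was 7797513 to 15754638 reads a library. The spike-in mRNAs named in the labels were not used here. The study's text calls the 3 sequencing replicates independent and does not say whether each came from its own collection of oocytes, so p-values measure the spread between these libraries.

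Genes with a mean of at least 10 were tested on log2(value + 1), a scale that understates changes of low genes, with limma 3.58.1 in R 4.3.3 (lmFit, eBayes with a variance trend) and Benjamini-Hochberg adjustment over all of them. For single low genes an exact permutation test, two-sided, was used. In simulated data of 12129 genes tested, 93.0% of genes changed 4-fold and 77.0% of genes changed 2-fold were called. The simulated spread depended on the mean of a gene alone, so these shares do not carry over to real genes that vary more. Lengths, positions and the windows of 250 bases before gene starts came from RefSeq on Sscrofa11.1, read with pysam 0.24.0. Tables were handled with Python 3.11.15 and pandas 2.3.3.

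The members and lists were chosen with earlier results of these data known. All members found were named, and from each list the 2 genes with the highest mean and the 2 with the lowest p, with others named after their values were seen. The lists were other imprinted genes, neighbours, imprint maintenance factors, IGF signalling genes, and markers of oocytes and of cumulus and granulosa cells. Settings varied were the pseudocount (0.1 or 10), the filter (none, or a mean of 100), trimmed-mean rescaling, quantile normalization, no variance trend, a replicate block and leaving out each library.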

Additional observations from a re-analysis of the deposited data

How the results depend on the processing

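By limma 0 members were called under every alternative run, and 0 genes of the other lists. For the 6 members tested, 83 comparisons with an alternative were made, of which 77 kept the direction and 6 did not, all 6 on leaving out 1 library. The log2 fold change then ranged from -0.095 to 0.074 for PEG10, from -0.050 to 0.072 for MEST and from -0.14 to 0.30 for PEG3, and among other genes from -0.021 to 0.067 for PPP1R9A, from -0.033 to 0.21 for KPNA7 and from -0.13 to 0.034 for VCAN. With quantile normalization KPNA7 was at -0.015. Why these turned was not tested.

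Over all genes, 19 were called, 7 higher and 12 lower. Leaving out 1 library gave 11 to 19 genes, 3 to 8 higher and 8 to 14 lower. The counts were 12 without NC replicate 2, 12 without NC replicate 3 and 11 without KD replicate 2. Quantile normalization gave 4 higher. Without the variance trend limma called 0 genes, 0 higher and 0 lower, with 622 at an unadjusted p below 0.05. The targeted gene SIN3A was thus not called in that run either, so its 0 for the members is not informative. The replicate block called 26 genes, 19 of them shared with the fit without it, and 0 members, with 0.868 as their lowest adjusted p. Libraries with the same number had correlations of 0.087 to 0.111 after the group means were subtracted, and the labels state no pairing. Each sample correlated best with its own number. Without the filter, the log2 fold changes of GRB10, DLK1 and NNAT, which rest on few reads, were 0.48, 0.87 and 0.31, with standard errors of 0.62, 0.72 and 0.77.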
